A study of Homo sapiens with 12 samples.

Results

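The proteasome genes of K562 cells were followed through exposure to a saturated fatty acid. K562 is a human leukaemia line of erythroid character. Members were chosen by symbol, as every gene named PSM with a letter from A to G and a number, pseudogenes and antisense genes excluded. Of 48 such genes among the 23153 genes present in all 3 deposited tables, 44 had a mean of at least 1 FPKM (fragments scaled to transcript length and library size, a level per length) over the 11 libraries used, and these 44 were tested together with all 11075 genes that reached this mean. The 4 left out were PSMA8, listed at 0 in each library, PSMB11, at most 0.037 FPKM, PSMB9, at most 0.84 FPKM, and PSMB8, at most 1.83 FPKM. The members just inside the threshold were far above it: PSMB10 averaged 21.7 FPKM, PSMF1 23.2 FPKM and PSME4 23.6 FPKM.

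Each library was made from RNA of 3 biological replicates pooled before library preparation, so that 1 library stands for 1 group of 1 experiment. The study used 3 experiments. Wild-type (WT) cells given 0.2 mM palmitate coupled to albumin were present in all 3. Experiment 1 added WT cells given palmitoleate, an unsaturated fatty acid, for which the labels state no dose. Experiment 2 added WT cells given palmitate and palmitoleate together and GPAT4ko cells given palmitate, and experiment 3 added RNF213kd cells with palmitate and RNF213kd cells left untreated. Untreated WT cells were the baseline in all 3. GPAT4 is an acyltransferase of glycerolipid synthesis at the endoplasmic reticulum, and RNF213 is a large ubiquitin ligase. The exposure lasted 20 h according to the labels and 16 h according to legends that accompany the values of experiments 2 and 3. They do not say whether the knockout or knockdown cells came from 1 clone, nor how they were made.

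The proteasome degrades proteins that carry ubiquitin chains. A barrel-shaped core of stacked alpha and beta rings holds the proteolytic sites, and a regulatory cap made of a base, with a ring of unfolding ATPases, and a lid, which removes ubiquitin, feeds substrates into it. Other caps, the PSME activators, open the core without ubiquitin recognition, and dedicated chaperones assemble the core (PSMG1 to PSMG4 with POMP) and the base (PSMD5, PSMD9 and PSMD10). When the proteasome is impaired, subunit genes are raised together by the transcription factor NFE2L1 through antioxidant response elements near their start sites.

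The promoters of 4 of the members with the lowest palmitate ratios are shown, since the description below turns on these genes. Each is the 250 bases before the RefSeq start site in GRCh38.p14, read 5′ to 3′ on the gene's strand, with motif matches of either strand in capitals. PSME3 lies at chr17:42833147-42833396 on the plus strand, PSMG1 at chr21:39183452-39183701 on the minus strand, PSMD5 at chr9:120842923-120843172 on the minus strand and PSMG4 at chr6:3258697-3258946 on the plus strand.
PSME3: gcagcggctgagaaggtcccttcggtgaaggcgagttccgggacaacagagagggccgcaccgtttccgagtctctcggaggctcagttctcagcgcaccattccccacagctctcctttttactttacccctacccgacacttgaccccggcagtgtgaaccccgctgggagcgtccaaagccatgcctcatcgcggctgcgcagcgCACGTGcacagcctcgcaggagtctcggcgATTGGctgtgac
PSMG1: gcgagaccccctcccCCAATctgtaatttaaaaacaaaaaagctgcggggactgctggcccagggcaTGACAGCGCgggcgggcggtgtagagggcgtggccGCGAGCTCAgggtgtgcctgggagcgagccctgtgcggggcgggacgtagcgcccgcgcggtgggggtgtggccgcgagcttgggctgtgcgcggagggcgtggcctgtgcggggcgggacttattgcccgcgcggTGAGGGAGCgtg
PSMD5: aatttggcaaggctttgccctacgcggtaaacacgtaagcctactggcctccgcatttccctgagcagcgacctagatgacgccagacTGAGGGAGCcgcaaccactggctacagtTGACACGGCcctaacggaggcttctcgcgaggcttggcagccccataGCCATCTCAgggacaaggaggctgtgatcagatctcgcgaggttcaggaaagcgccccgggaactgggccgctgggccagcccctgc
PSMG4: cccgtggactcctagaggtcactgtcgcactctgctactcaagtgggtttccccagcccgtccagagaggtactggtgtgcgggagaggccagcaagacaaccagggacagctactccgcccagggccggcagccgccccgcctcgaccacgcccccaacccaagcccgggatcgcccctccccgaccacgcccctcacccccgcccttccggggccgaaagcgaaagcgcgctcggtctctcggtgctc

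The motifs searched, on both strands, were the antioxidant response element cores TGACNNNGC and TGAGNNNGC, the E-box CACGTG and the CCAAT box (CCAAT). PSMG1 holds TGACNNNGC 183 bases before the start and TGAGNNNGC at 148 and 12 bases, with a CCAAT box at 235 bases. PSMD5 holds TGACNNNGC at 134 bases and TGAGNNNGC at 162 and 87 bases. PSME3 holds an E-box at 42 bases and a CCAAT box at 12 bases, and PSMG4 holds none of the 4 motifs. Of the 48 members, 42 matched the promoter table, which holds 27305 promoters in all. TGACNNNGC was present in 11 of the 42 member promoters (26.2%) and in 11% of all promoters, TGAGNNNGC in 10 (23.8%) and in 14.8%, the CCAAT box in 18 (42.9%) and in 33%, and the E-box in 3 (7.14%) and in 6.49%. Such matches describe the letters of this window and are not measured binding sites.

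All 7 K562 and erythroid markers checked, among them GATA1, KLF1 and TFRC, reached 1 FPKM in at least 1 library, with a summed level between 4888 and 16460 FPKM per library. Of 19 markers of other cell types, 5 did so (CD3D, LYZ, COL1A2, EPCAM and KRT8), with a summed level between 196 and 637 FPKM to which KRT8 gave 59.9 to 577 FPKM. MS4A1 and CDH5 were listed at 0 throughout. Their part in any result was not tested. AGPAT6, the older symbol of GPAT4, was at 8.77 FPKM in GPAT4ko cells with palmitate, against 19.99 FPKM in WT cells with palmitate. RNF213 was at 1.54 FPKM in RNF213kd cells with palmitate, against 3.08 FPKM in WT cells with palmitate, and at 1.39 FPKM in untreated RNF213kd cells, against 1.96 FPKM in untreated WT cells. Both targeted genes were thus lower under their own labels, while transcripts of both were still counted. A labelled untreated GPAT4ko library was not analysed here, since no column carries its name.

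Proteasome genes were among the well-expressed genes of these cells, and their levels differed between classes. Of the 31 subunits of the core, base and lid, which the assembled particle holds in fixed number, PSMB1, a beta-ring subunit, was the highest in each of the 11 libraries, between 648 and 1022 FPKM. The lowest was PSMD1, a large scaffold of the base, in 7 libraries, at 60.1 to 90.4 FPKM, with PSMD3, PSMA5 or PSMD6 lowest in the other 4. The highest of the 31 stood between 8.63 and 16.5 times above the lowest within a library. The factors outside the particle's fixed set were mostly lower: PSME4, a large activator, lay between 18.1 and 32.7 FPKM, PSMF1, which encodes the PI31 regulator, between 16.4 and 30.8 FPKM, and the base chaperone PSMD9 between 21.7 and 44.9 FPKM. PSMG1, which forms the alpha-ring assembly pair with PSMG2, was higher at 89.6 to 256 FPKM, a range that overlapped those of many subunits. Ranges of other such factors also reached those of the lower subunits. Among them were PSMG2, at 72.2 to 142 FPKM, PSME2, at 55.9 to 127 FPKM, and PSME3, at 40.1 to 135 FPKM. Among the inducible beta subunits, which replace the standard catalytic ones in the immunoproteasome, PSMB10 was present at 15.7 to 34.4 FPKM. PSMB8 lay between 0.035 and 1.83 FPKM and PSMB9 between 0.11 and 0.84 FPKM. In every library both were far below the standard catalytic subunits PSMB5, at 97.0 to 218 FPKM, PSMB6, at 135 to 197 FPKM, and PSMB7, at 223 to 349 FPKM.

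**Figure D1:**
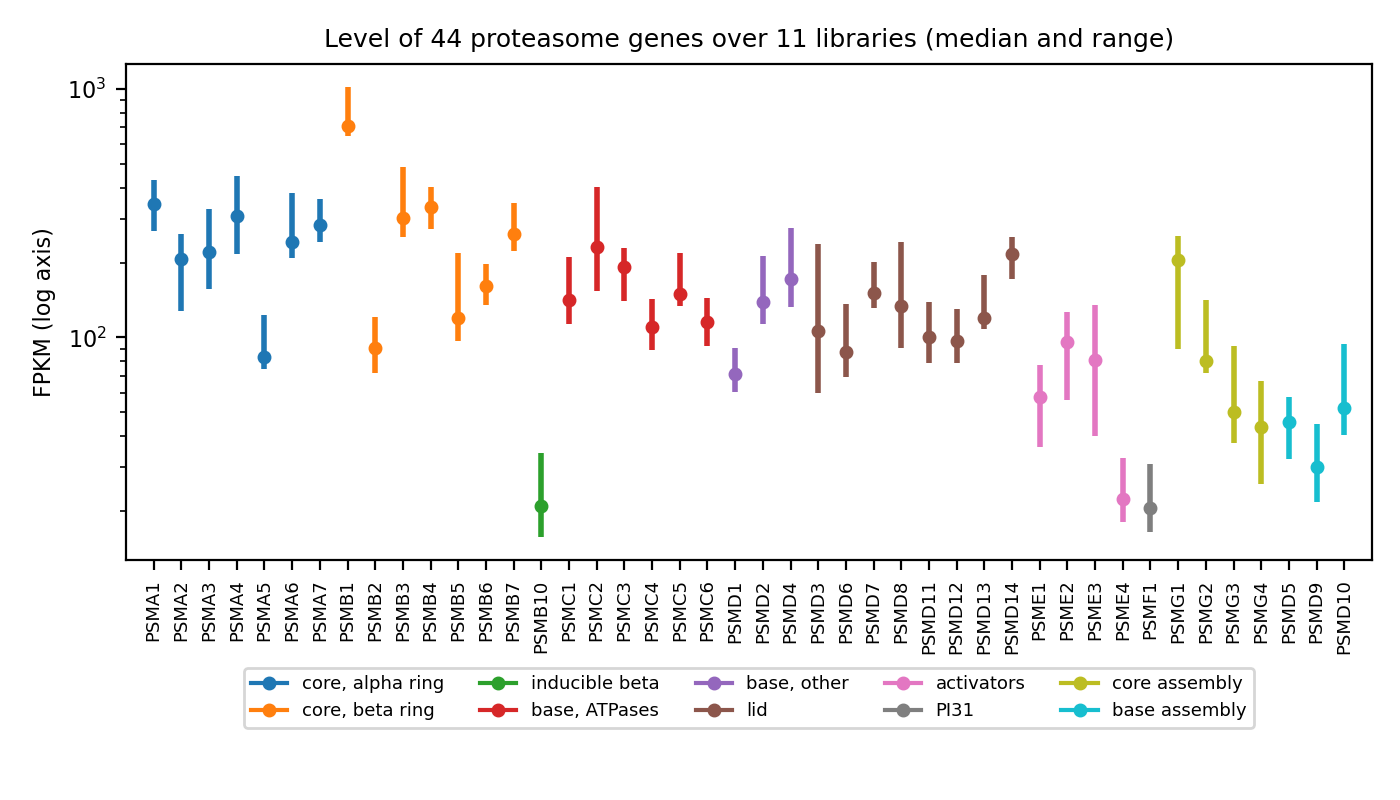
Level of the 44 tested members, with the median (point) and the range (line) over 11 libraries, in FPKM on a log axis, coloured by class. PSMB1 lies highest, at 648 to 1022 FPKM, and PSMB10, PSME4 and PSMF1 lie lowest among the tested members.

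The first question was what palmitate did to proteasome genes in wild-type cells. One member changed: PSME3, which encodes the nuclear activator PA28-gamma, fell in each of the 3 experiments. PSME3 was at 40.1, 46.7 and 42.2 FPKM in palmitate-treated cells of experiments 1 to 3, against 101, 135 and 80.9 FPKM in untreated cells. The listed values of the groups did not overlap, and the highest palmitate level lay far below the lowest untreated one. The values of each experiment were scaled on their own, however. Overlap of groups across experiments, here and below, therefore describes listed values and was not part of any test. The mean log2 ratio of PSME3, palmitate over untreated and on the log2(FPKM + 1) scale used for every ratio here, was -1.25 ± 0.21 (SE, 3 experiments), with an adjusted p of 0.0295 (limma, Benjamini-Hochberg over 11075 genes). Of the 44 members 0 were called higher, where 6.59% of all tested genes were, and 1 was called lower, where 3.84% of all tested genes were. At an unadjusted p under 0.05, 0 members were higher and 5 were lower (PSME3, PSMG1, PSMG3, PSMG4 and PSMD5), while 32.6% of all tested genes passed that level in either direction. The call was lost without experiment 1 (limma's adjusted p = 0.0629), without experiment 3 (adjusted p = 0.142) and with no filter on low values (adjusted p = 0.158), and held without experiment 2 (adjusted p = 0.032), with log2 ratios between -1.41 and -1.11 when an experiment was left out. The summed level of the erythroid markers was 5471, 4888 and 5027 FPKM in the palmitate-treated cells, against 7579, 16460 and 9642 FPKM in the untreated cells. That of the markers of other cell types was 241, 637 and 353 FPKM in the palmitate-treated cells, against 275, 239 and 218 FPKM in the untreated cells, so it was lower in experiment 1 and higher in experiments 2 and 3. The KRT8 part of it was 115.5, 577 and 276 FPKM in the palmitate-treated cells, against 137, 164 and 106 FPKM in the untreated cells, and its mean log2 ratio of 0.98 did not pass the test (adjusted p = 0.159, limma). Among the erythroid markers, GATA1, KLF1 and HBG2 were called lower (adjusted p = 0.0295, 0.0295 and 0.0407, limma). Their mean log2 ratios were -1.46, -2.83 and -1.25. HBG1, at -1.20, HBE1, at -0.83, TAL1, at -0.21, and TFRC, at 0.09, did not pass the test. The part of either marker list in the PSME3 result was not tested.

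Beside PSME3, the means of PSMG1, PSMG3, PSMD5 and PSMG4 were lower by more than 1.5-fold, between -0.81 and -0.61, without passing the test. These genes were lower in all 3 experiments. The other members had smaller mean ratios, without a sign common to all of them. The median log2 ratio of the 44 members was -0.17, beside -0.06 over all tested genes and -0.17 over the 941 tested genes averaging at least 100 FPKM, a group added because most members are highly expressed. By experiment the members' median was 0.00, -0.29 and -0.13, beside 0.09, -0.30 and -0.16 for genes of at least 100 FPKM. The SD over genes was 0.32 for the members' mean ratios and 0.73 over all tested genes. Of the 44 members 14 were lower under palmitate in all 3 experiments, where 29.6% of all tested genes were, and 3 (PSMD10, PSMD4 and PSMD7) were higher in all 3, where 25.9% were. PSME3 was the 1 member lower by more than 1.5-fold in all 3, where 4.70% of tested genes were. Experiment 2 alone had 10 members lower by that much, where 24.5% of all tested genes were. In experiment 1 the log2 ratio ran with GC content of the transcript, with Spearman's rho of -0.55 over the 44 members and -0.63 over 10623 genes, while in experiments 2 and 3 rho over the members was 0.07 and 0.32. Genes share a library here, so these correlations describe the libraries. Since cells were measured in bulk, a share of cells with a changed level and an equal change in every cell cannot be told apart.

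**Figure D2:**
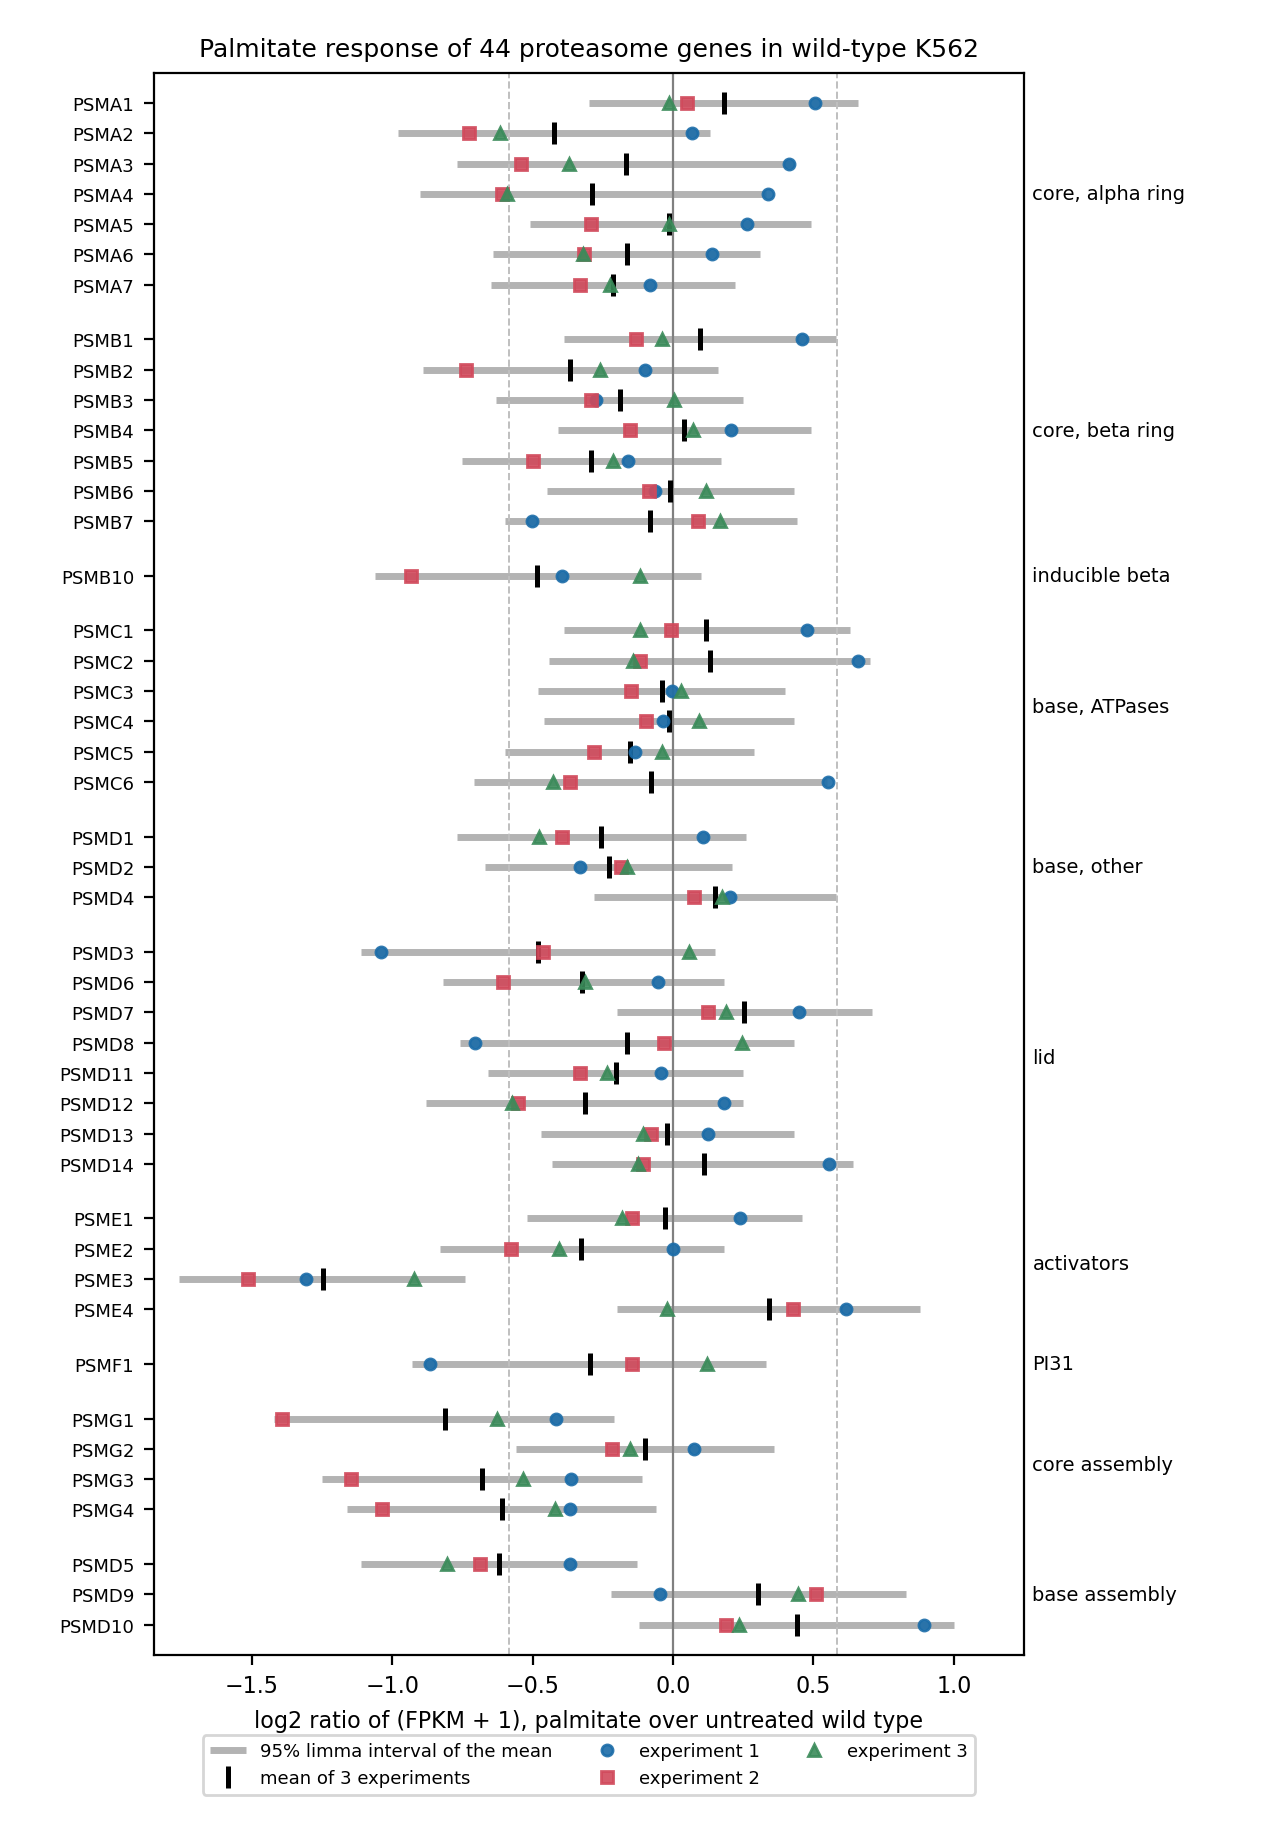
Log2 ratio of (FPKM + 1), palmitate over untreated wild type, of the 44 tested members by class, with 1 coloured symbol for each experiment, a black bar for the mean and a grey line for its 95% limma interval. Dashed lines mark a fold of 1.5; PSME3 is the member whose 3 experiments all lie beyond the lower line.

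In the alpha ring, which gates the core, 6 of 7 tested genes had a mean ratio below 0 and none passed the test (median -0.17). The lowest was PSMA2, at 216, 127 and 170 FPKM in palmitate-treated cells, against 206, 212 and 261 FPKM in untreated cells. Its values were lower under palmitate in experiments 2 and 3 and slightly higher in experiment 1, with a mean log2 ratio of -0.42 ± 0.23 (SE, adjusted p = 0.251, limma). PSMA1, the highest of the ring by ratio, was at 379, 428 and 340.0 FPKM in palmitate-treated cells, against 267, 413 and 344 FPKM in untreated cells, a mean of 0.18 ± 0.20. The groups overlapped for both genes. The alpha-ring median was 0.26 in experiment 1, and -0.33 and -0.32 in experiments 2 and 3. After the trend on GC content was removed, it was -0.07 in experiment 1.

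The beta ring carries the proteolytic sites, and 0 of its 7 standard genes passed the test (median -0.08). PSMB5, the chymotrypsin-like subunit, was at 97.0, 154 and 105 FPKM in palmitate-treated cells, against 109, 218 and 122 FPKM in untreated cells. PSMB6, the caspase-like subunit, was at 144, 185 and 161 FPKM in palmitate-treated cells, against 151, 197 and 148 FPKM in untreated cells. PSMB7, the trypsin-like subunit, was at 241, 349 and 251 FPKM in palmitate-treated cells, against 342, 328 and 223 FPKM in untreated cells. PSMB5 was the catalytic gene that was lower in all 3 experiments, with a mean log2 ratio of -0.29 and a 95% limma interval from -0.75 to 0.17. PSMB6 and PSMB7 had means of -0.01 and -0.08, with intervals from -0.45 to 0.43 and from -0.60 to 0.44. The lowest ratio of the ring belonged to PSMB2, a subunit without a proteolytic site, at 109, 71.9 and 75.6 FPKM in palmitate-treated cells, against 117, 121 and 90.7 FPKM in untreated cells. The highest was PSMB1, at 1022, 711 and 685 FPKM in palmitate-treated cells, against 743, 779.9 and 704 FPKM in untreated cells. PSMB2 had a mean of -0.37 (adjusted p = 0.281, limma) and PSMB1 of 0.10 (adjusted p = 0.763, limma), and neither pair of groups was separate.

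PSMB10, the inducible trypsin-like subunit, was lower under palmitate in each experiment without passing the test. It was at 15.7, 17.5 and 16.2 FPKM in palmitate-treated cells, against 20.9, 34.4 and 17.7 FPKM in untreated cells. Across experiments the groups were apart only narrowly, with 17.5 FPKM under palmitate in experiment 2 and 17.7 FPKM untreated in experiment 3. Within experiments the gap was widest in experiment 2. The mean log2 ratio was -0.48 ± 0.24 (adjusted p = 0.215, limma). It was -0.19 after the GC trend was removed, with a ratio of 0.42 in experiment 1 in place of -0.40. PSMB8 was at 1.37, 0.16 and 0.71 FPKM in palmitate-treated cells, against 1.83, 0.035 and 1.34 FPKM in untreated cells. PSMB9 was at 0.69, 0.38 and 0.55 FPKM in palmitate-treated cells, against 0.36, 0.11 and 0.48 FPKM in untreated cells. Both lie under the threshold of the test and are given as values.

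The ATPase ring of the base, which unfolds and translocates substrates, had the class median nearest 0 (-0.03 over 6 genes, 0 passing the test). PSMC2 was at 402, 192 and 232 FPKM in palmitate-treated cells, against 255, 208 and 256 FPKM in untreated cells, a mean log2 ratio of 0.13. PSMC5 was at 133, 179.8 and 136 FPKM in palmitate-treated cells, against 146, 219 and 140.3 FPKM in untreated cells, a mean of -0.15. PSMC5 was lower in each experiment and PSMC2 was higher in experiment 1 alone. Among the other base genes, PSMD1, the scaffold, was at 77.0, 68.5 and 60.1 FPKM in palmitate-treated cells, against 71.6, 90.4 and 84.1 FPKM in untreated cells. PSMD4, a ubiquitin receptor, was at 195, 275 and 150.4 FPKM in palmitate-treated cells, against 169, 261 and 133 FPKM in untreated cells. PSMD4 was higher in all 3 experiments by a small amount, a mean of 0.15 with an interval from -0.28 to 0.58, and PSMD1 had a mean of -0.26. PSMD2, the second large scaffold, had a mean of -0.23.

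None of the 8 lid genes passed the test (median -0.18, 6 below 0). PSMD3, a lid scaffold subunit, had the lowest ratio, at 61.8, 172 and 97.4 FPKM in palmitate-treated cells, against 128, 237 and 93.6 FPKM in untreated cells. PSMD7, the partner of the deubiquitinase PSMD14, had the highest, at 201, 192 and 150.3 FPKM in palmitate-treated cells, against 147, 176 and 132 FPKM in untreated cells. PSMD7 was higher in all 3 experiments, with a mean of 0.25 ± 0.19 (adjusted p = 0.382, limma). PSMD3 had ratios of -1.04, -0.46 and 0.06, so that its mean of -0.48 ± 0.26 (adjusted p = 0.25, limma) was carried mostly by experiment 1. PSMD8 had a like order, with ratios of -0.71, -0.03 and 0.25. PSMD14, the deubiquitinase itself, was at 254, 219.8 and 208 FPKM in palmitate-treated cells, against 172, 237 and 227 FPKM in untreated cells, a mean of 0.11.

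The activators did not move as 1 class. PSME3 fell, as given above, while PSME1 and PSME2, the subunits of the interferon-inducible PA28 activator, had mean log2 ratios of -0.03 and -0.33 and did not pass the test. PSME2 was at 111, 55.9 and 93.1 FPKM in palmitate-treated cells, against 111, 83.9 and 124 FPKM in untreated cells. PSME4, which encodes the single-chain activator PA200, was at 32.7, 30.4 and 20.1 FPKM in palmitate-treated cells, against 21.0, 22.3 and 20.4 FPKM in untreated cells. PSME4 thus had ratios of 0.62, 0.43 and -0.02, a mean of 0.34 ± 0.22 (adjusted p = 0.325, limma). PSME3 overlaps, in the annotation, an exon of BECN1 on the opposite strand at its locus (GRCh37, chr17:40976402-40995777, plus strand). BECN1 itself had a ratio of 0.17 (adjusted p = 0.594, limma), and whether the counting used strand is not given in the sources used here. PSMF1, whose product PI31 binds the core, was at 16.4, 27.8 and 19.6 FPKM in palmitate-treated cells, against 30.8, 30.8 and 17.9 FPKM in untreated cells. Its ratios of -0.87, -0.15 and 0.12 had no common sign, and the mean was -0.30 ± 0.26.

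Of the 4 core assembly chaperones, PSMG1, PSMG3 and PSMG4 were lower under palmitate in all 3 experiments, although none passed the adjusted test. PSMG1 was at 167, 89.6 and 153 FPKM in palmitate-treated cells, against 223, 237 and 236 FPKM in untreated cells. The palmitate libraries of PSMG1 all lay below the untreated ones, and its mean log2 ratio was -0.81 ± 0.25 (adjusted p = 0.0856, limma). PSMG3, which forms the second assembly pair with PSMG4, was at 38.7, 41.3 and 37.7 FPKM in palmitate-treated cells, against 50.1, 92.6 and 55.0 FPKM in untreated cells. PSMG4 was at 25.7, 31.9 and 33.3 FPKM in palmitate-treated cells, against 33.5, 66.5 and 44.9 FPKM in untreated cells. The groups were apart for both, narrowly for PSMG4, with means of -0.68 ± 0.23 (adjusted p = 0.107, limma) and -0.61 ± 0.22 (adjusted p = 0.126, limma). PSMG2, the partner of PSMG1, was at 96.3, 78.8 and 72.2 FPKM in palmitate-treated cells, against 91.5, 91.8 and 80.3 FPKM in untreated cells, a mean of -0.10 with an interval from -0.56 to 0.36. The class median was -0.37 in experiment 1, -1.09 in experiment 2 and -0.48 in experiment 3, and without experiment 2 the 3 means were -0.52, -0.45 and -0.40. PSMG1 passed the test in 2 alternative settings, with small RNA genes left out (adjusted p = 0.0329, limma, where 11.1% of all tested genes were called lower) and with the GC trend removed (adjusted p = 0.0358, limma, where 12.3% were called lower). With the GC trend removed, the mean of PSMG3 was -0.44 and its ratio in experiment 1 was 0.34. PSMG3 and PSMG4 each overlap a gene on the opposite strand, and PSMG3 is 1 of 17 tested members with an annotated pseudogene, to which reads of near-identical copies could have been split.

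The mean ratios of the 3 base chaperones differed in sign, and none of the 3 passed the adjusted test in the main setting. PSMD5, a chaperone bound to intermediates of the base, was at 41.0, 32.8 and 32.5 FPKM in palmitate-treated cells, against 53.1, 53.6 and 57.5 FPKM in untreated cells. These groups were apart in all libraries, with a mean log2 ratio of -0.62 ± 0.20 (adjusted p = 0.0969, limma), and PSMD5 passed the test with the GC trend removed (adjusted p = 0.0233, limma). PSMD10, known as gankyrin, was at 94.1, 53.1 and 48.0 FPKM in palmitate-treated cells, against 50.1, 46.4 and 40.6 FPKM in untreated cells. PSMD10 had the highest ratio of the family, 0.44 ± 0.23 (adjusted p = 0.235, limma), and was higher in all 3 experiments. In experiment 1 its ratio was 0.895, and without that experiment its mean was 0.21. Across experiments, its palmitate level of experiment 3 lay below the untreated level of experiment 1. PSMD9 was at 29.1, 44.9 and 30.0 FPKM in palmitate-treated cells, against 30.1, 31.3 and 21.7 FPKM in untreated cells, a mean of 0.30 ± 0.21.

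**Figure D3:**
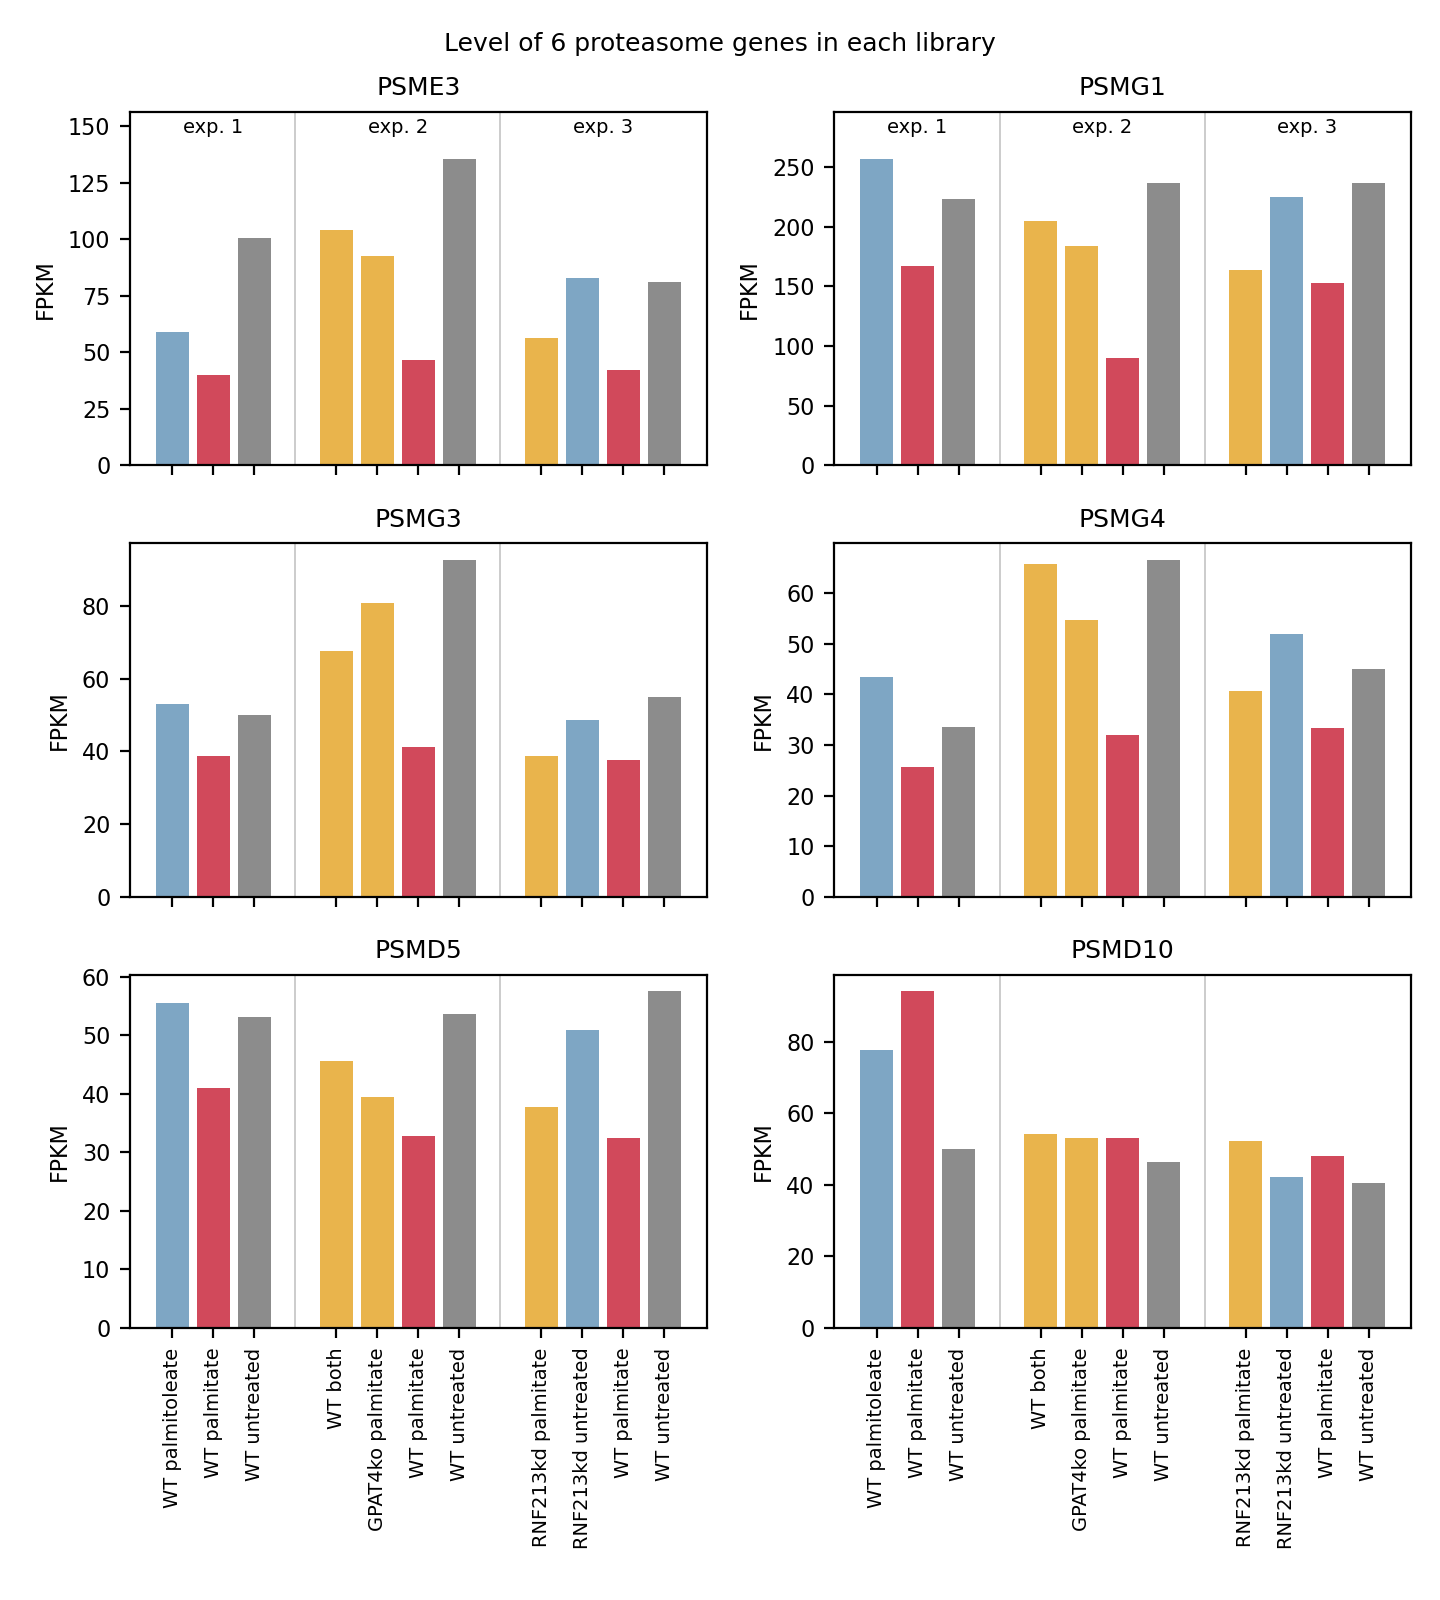
Level in FPKM of 6 members in each of the 11 libraries, 1 bar per library, grouped by experiment, with wild type plus palmitate in red, untreated wild type in grey, other palmitate-containing libraries in yellow and other libraries in blue. PSME3 is at 40.1 to 46.7 FPKM in the 3 red bars, below its level in each of the other libraries.

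Genes that act on or with the proteasome were described from lists taken up with the members. Of 17 partners outside the symbol rule, 2 were called higher and 0 lower under palmitate in wild-type cells (median 0.03), where 6.59% of all tested genes were called higher and 3.84% lower. They were AKIRIN2, which carries proteasomes into the nucleus, with a mean log2 ratio of 0.92 ± 0.19 (adjusted p = 0.0434, limma), and ZFAND2A, a stress-induced proteasome-binding protein, with 1.44 ± 0.23 (adjusted p = 0.0276, limma). AKIRIN2 was at 55.4, 54.6 and 38.6 FPKM in palmitate-treated cells, against 32.1, 25.5 and 19.8 FPKM in untreated cells, with no overlap. POMP, which joins the PSMG chaperones in core assembly, had 0.29 (adjusted p = 0.464, limma), and the ubiquitin receptor ADRM1 had 0.09 (adjusted p = 0.822, limma). UBQLN4 was lower in all 3 experiments, with a mean of -0.91 (adjusted p = 0.0646, limma). It passed with small RNA genes left out (adjusted p = 0.0215, limma) and with the GC trend removed (adjusted p = 0.026, limma). In the latter setting 3 partners were called higher and 1 lower.

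Of 15 genes of transcriptional control, 4 were called higher and 0 lower (median -0.19), against the same 6.59% and 3.84% of all tested genes. NFE2L1 was at 53.3, 102 and 76.6 FPKM in palmitate-treated cells, against 32.6, 39.2 and 32.8 FPKM in untreated cells. The mean log2 ratios of the 4 were 1.08 for NFE2L1, 1.34 for its relative NFE2L2, the oxidative stress factor, 2.45 for their small partner MAFF, and 1.37 for BACH1, a repressor at the same elements, with adjusted p from 0.0189 to 0.0405 (limma). Messenger RNA of NFE2L1 was higher in the same libraries in which 0 of 44 proteasome genes were called higher. Of all tested genes 6.59% were called higher, and a link between NFE2L1 and the members was not tested. Activity of the NFE2L1 protein, which depends on its processing, was not measured. DDI2 and NGLY1, the protease and the glycanase of that processing, had mean ratios of -0.35 and 0.01 and did not pass the test. With the GC trend removed, 6 genes of this list were called higher and 1 lower, NFYA (adjusted p = 0.0463, limma).

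Of 10 genes of ubiquitin supply and substrate extraction, 2 were called higher and 0 lower (median 0.07), where 6.59% of all tested genes were called higher and 3.84% lower. HSPA5, a chaperone resident in the endoplasmic reticulum, was at 1259, 1451 and 855 FPKM in palmitate-treated cells, against 132, 148 and 132 FPKM in untreated cells, with no overlap. Its mean log2 ratio was 3.07, and that of SQSTM1, a receptor of selective autophagy, was 2.97, each with an adjusted p of 0.012 (limma). The extraction ATPase VCP and its cofactors UFD1L and NPLOC4 had ratios between -0.08 and 0.08 and did not pass. Of 7 tested genes of antigen processing, 2 were called higher and 0 lower (median 0.32), beside the same shares of all tested genes. Both lay close to the threshold of 0.05: ERAP1, a peptide-trimming peptidase, with 0.91 (adjusted p = 0.0482, limma), and IRF1, an interferon-response factor, with 1.26 (adjusted p = 0.0487, limma). TAP2 was lower in all 3 experiments, with a mean of -0.85 (adjusted p = 0.0751, limma). With the GC trend removed, 2 genes of this list were called higher and 1 lower, TAP2 (adjusted p = 0.0377, limma). NLRC5 was the gene of this list below the level of 1 FPKM needed for the test.

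The remaining comparisons set 1 library against 1 library, so they have no replicate check and no test. Members beyond a fold of 1.5 are counted beside the share of all tested genes beyond it, and each 95% interval borrows the spread of the wild-type ratios between experiments. They share libraries with the palmitate comparison above, so a ratio against palmitate is not separate evidence for a gene that was low in that palmitate library.

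In palmitoleate-treated cells of experiment 1, the median log2 ratio of the members over untreated cells was 0.15, beside 0.22 for genes of at least 100 FPKM and 0.01 for all tested genes. Of the 44 members 2 were higher by more than 1.5-fold, where 6.23% of all tested genes were, and 5 were lower, where 18.5% were. The higher ones were PSMD10, at 77.7 FPKM with palmitoleate against 50.1 FPKM untreated, and the ATPase gene PSMC6, at 140.5 FPKM against 92.3 FPKM. The lower ones were the lid genes PSMD3 and PSMD8, with PSME3, PSMF1 and PSMB7. PSMD3 was at 59.8 FPKM with palmitoleate against 128 FPKM untreated, a log2 ratio of -1.09 with an interval from -2.18 to 0.01. With palmitate, in the same experiment, PSMD3 was at a like level of 61.8 FPKM. PSME3 was at 58.9 FPKM with palmitoleate, against 101 FPKM untreated, a ratio of -0.76 (interval -1.65 to 0.13). PSMD8 was at -0.69 and PSMF1 at -0.67, while PSMD10 was at 0.62, PSMC6 at 0.60 and the alpha-ring genes PSMA4 and PSMA3 each at 0.39. The ratios of this comparison ran with GC content, with rho of -0.62 over the members and -0.75 over 10623 genes. After the GC trend was removed, 6 members were beyond the fold, but the set was a different one. PSMD3, at -0.81, PSME3, at -0.68, and PSMF1, at -0.62, stayed lower. PSMB10, at 0.78, PSMG3, at 0.70, and PSMG4, at 0.64, entered as higher. PSMD10, at 0.31, PSMC6, at 0.25, PSMB7, at -0.48, and PSMD8, at -0.26, were no longer beyond the fold.

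Against palmitate in the same experiment, palmitoleate-treated cells had 2 members higher by more than 1.5-fold, where 7.77% of all tested genes were, and 0 lower, where 11.0% were. They were the assembly chaperones PSMG4, at 43.4 FPKM with palmitoleate against 25.7 FPKM with palmitate, and PSMG1, at 256 FPKM against 167 FPKM. PSMG4 had a log2 ratio of 0.73 (interval -0.22 to 1.69) and PSMG1 of 0.62 (interval -0.43 to 1.67). PSME3 was at 0.55 (interval -0.34 to 1.43) and PSMB10 at 0.46 (interval -0.54 to 1.47). The lowest ratios belonged to PSME4, at -0.38, PSMC2, at -0.32, PSMD10, at -0.27, and PSMD4, at -0.24. Doses cannot be matched in this pair, because none is given for palmitoleate alone. Palmitoleate has the chain length of palmitate and differs from it by a double bond.

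Cells of experiment 2 that received both fatty acids had most members slightly below untreated cells. No member was beyond 1.5-fold of untreated cells in either direction, where 5.80% of all tested genes were. Of the 44 members 41 had a ratio below 0, where 52.9% of all tested genes did, with a median of -0.30 (middle 50% from -0.38 to -0.23), beside -0.02 over all tested genes. Genes of at least 100 FPKM had a median of -0.18 in that comparison, and 80.7% of them were below 0. The 3 members above 0 were PSMD10, at 0.22, PSME4, at 0.09, and PSME1, at 0.08. The lowest were the lid genes PSMD6, at -0.50, and PSMD11, at -0.45, with PSMG3, at -0.45, and PSMC5, at -0.45. PSME3 was at 104 FPKM with both fatty acids, against 135 FPKM untreated, a ratio of -0.37 (interval -1.26 to 0.51).

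Against palmitate alone, the cells with both fatty acids had 5 members higher by more than 1.5-fold, where 21.6% of all tested genes were, and 1 lower, where 19.1% were. PSMG1 was at 205 FPKM with both against 89.6 FPKM with palmitate, a log2 ratio of 1.18 (interval 0.13 to 2.23). PSME3 was at 104 FPKM against 46.7 FPKM, a ratio of 1.14 (interval 0.25 to 2.03), and PSMG4 at 65.8 FPKM against 31.9 FPKM, a ratio of 1.02 (interval 0.07 to 1.97). PSMB10, at 0.75 (interval -0.25 to 1.75), and PSMG3, at 0.70 (interval -0.28 to 1.68), were the others. Palmitate over untreated in that experiment, which uses the same palmitate library, gave -1.39 for PSMG1, -1.51 for PSME3, -1.04 for PSMG4, -0.93 for PSMB10 and -1.15 for PSMG3. PSMD9 was the member lower, at 25.1 FPKM with both against 44.9 FPKM with palmitate, a ratio of -0.82 (interval -1.73 to 0.10), followed by PSMD7, at -0.45, PSMB7, at -0.41, and PSMD8, at -0.37.

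GPAT4ko cells with palmitate had 5 members higher by more than 1.5-fold than wild-type cells with palmitate, where 18.7% of all tested genes were, and 0 lower, where 16.4% were. They were PSME3 and all 4 core assembly chaperones. PSMG1 was at 184 FPKM in GPAT4ko cells, against 89.6 FPKM in wild-type cells, a log2 ratio of 1.03 (interval -0.02 to 2.08). PSME3 was at 92.6 FPKM in GPAT4ko cells, against 46.7 FPKM in wild-type cells, a ratio of 0.97 (interval 0.08 to 1.86), and PSMG3 was at 80.8 FPKM, against 41.3 FPKM, a ratio of 0.95 (interval -0.03 to 1.93). These genes lay between the palmitate and the untreated library of wild-type cells. PSMG4 was at 54.7 FPKM in GPAT4ko cells, against 31.9 FPKM in wild-type cells, a ratio of 0.76 (interval -0.20 to 1.71). PSMG2 was different in that its GPAT4ko level of 142 FPKM exceeded every other library, with 78.8 FPKM in wild-type cells with palmitate and 91.8 FPKM in untreated wild-type cells. Its ratio was 0.84 (interval 0.04 to 1.64). CEP76, which overlaps PSMG2 on the opposite strand, had a ratio of 1.44 in the same comparison, and its part in the PSMG2 value was not tested. Over all members the median was 0.06, beside 0.25 for genes of at least 100 FPKM, and PSMA6, PSMD9, PSME4 and PSMD7 had the lowest ratios, between -0.36 and -0.26. Whether untreated GPAT4ko cells already differed was not analysed here.

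**Figure D4:**
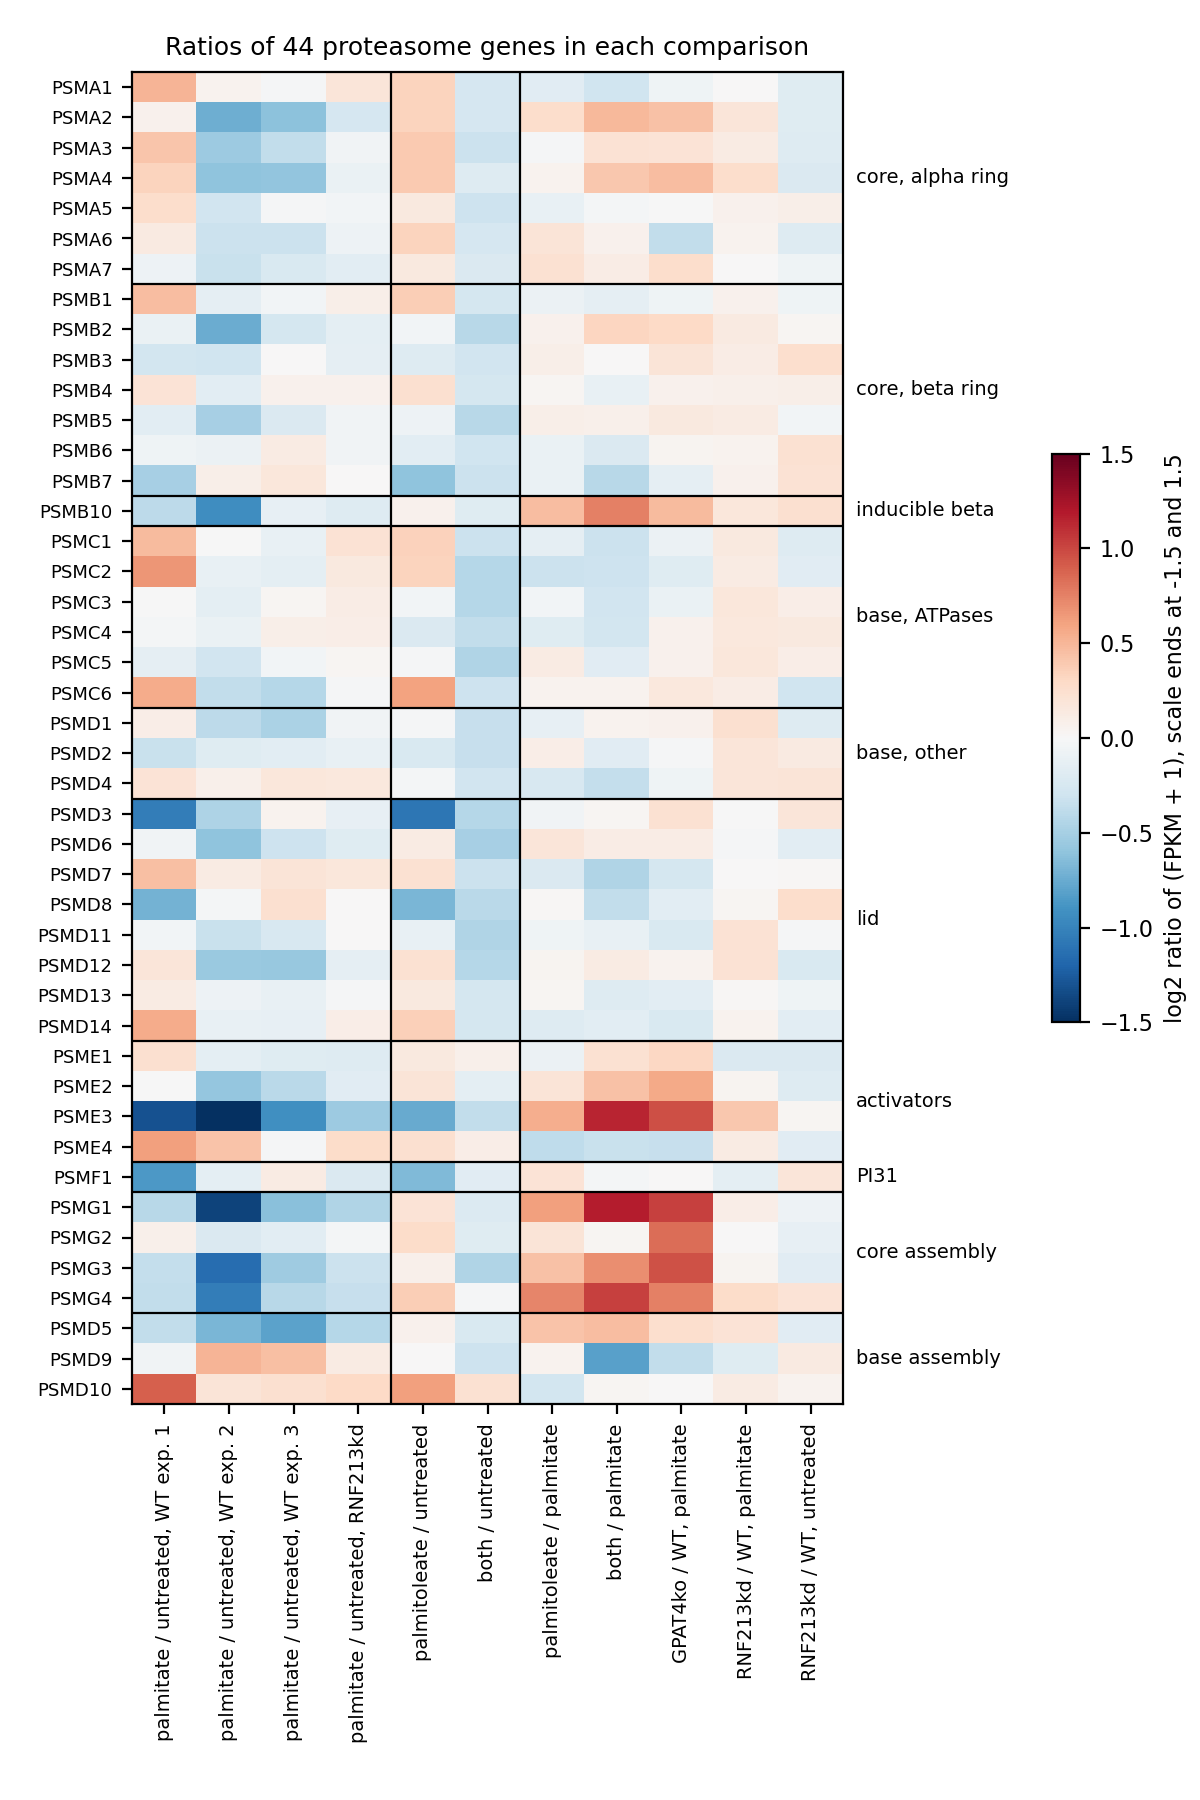
Log2 ratio of (FPKM + 1) of the 44 tested members (rows, by class) in the 3 wild-type palmitate comparisons and in 8 comparisons of single libraries (columns), red above 0 and blue below, with the scale ending at -1.5 and 1.5. PSME3, PSMG1, PSMG3 and PSMG4 are blue under palmitate in each wild-type experiment and red in the columns for both fatty acids over palmitate and for GPAT4ko over wild type with palmitate.

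In experiment 3 the RNF213kd cells had 0 members beyond 1.5-fold in each of their 3 comparisons. With palmitate, RNF213kd cells over wild-type cells had 39 of 44 members above 0 and 5 below, where 43.7% of all tested genes were below 0, with a median of 0.11, beside 0.15 for genes of at least 100 FPKM, of which 24.1% were below 0. Beyond 1.5-fold in that comparison were 5.45% of all tested genes. PSME3 had the highest ratio, 0.41 (interval -0.48 to 1.30), at 56.4 FPKM in RNF213kd cells against 42.2 FPKM in wild-type cells. PSMG4, at 0.28, PSMA4, at 0.27, and PSMD1, at 0.24, came next, and the lowest were PSME1, at -0.22, PSMD9, at -0.18, PSMF1, at -0.15, and PSMD6, at -0.02.

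Within RNF213kd cells, palmitate over untreated gave a median of -0.05, and 11.0% of all tested genes were beyond 1.5-fold. PSME3 again had the lowest ratio, -0.54 (interval -1.43 to 0.34), at 56.4 FPKM with palmitate against 82.8 FPKM untreated, beside -0.92 in wild-type cells of that experiment. PSMG1 was at 164 FPKM with palmitate against 225 FPKM untreated, a ratio of -0.45, PSMD5 was at -0.42 and PSMG4 at -0.35. The highest were PSMD10, at 0.30, PSME4, at 0.27, PSMC1, at 0.22, and PSMA1, at 0.18. The PSME3 response of RNF213kd cells minus that of wild-type cells was 0.38, a difference that was not tested. In untreated cells, RNF213kd over wild type gave a median of -0.05, 3.65% of all tested genes were beyond 1.5-fold, and the members ran from -0.30 for PSMC6 to 0.27 for PSMD8. After PSMC6 came PSMD12, at -0.23, PSMA4, at -0.22, and PSME1, at -0.21, and below PSMD8 came PSMB3 and PSMB10, each at 0.25, and PSMB6, at 0.23. PSME3 was at 82.8 FPKM in untreated RNF213kd cells, against 80.9 FPKM in untreated wild-type cells. That comparison also ran with GC content, with rho of 0.57 over the members and 0.63 over 10623 genes.

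**Figure D5:**
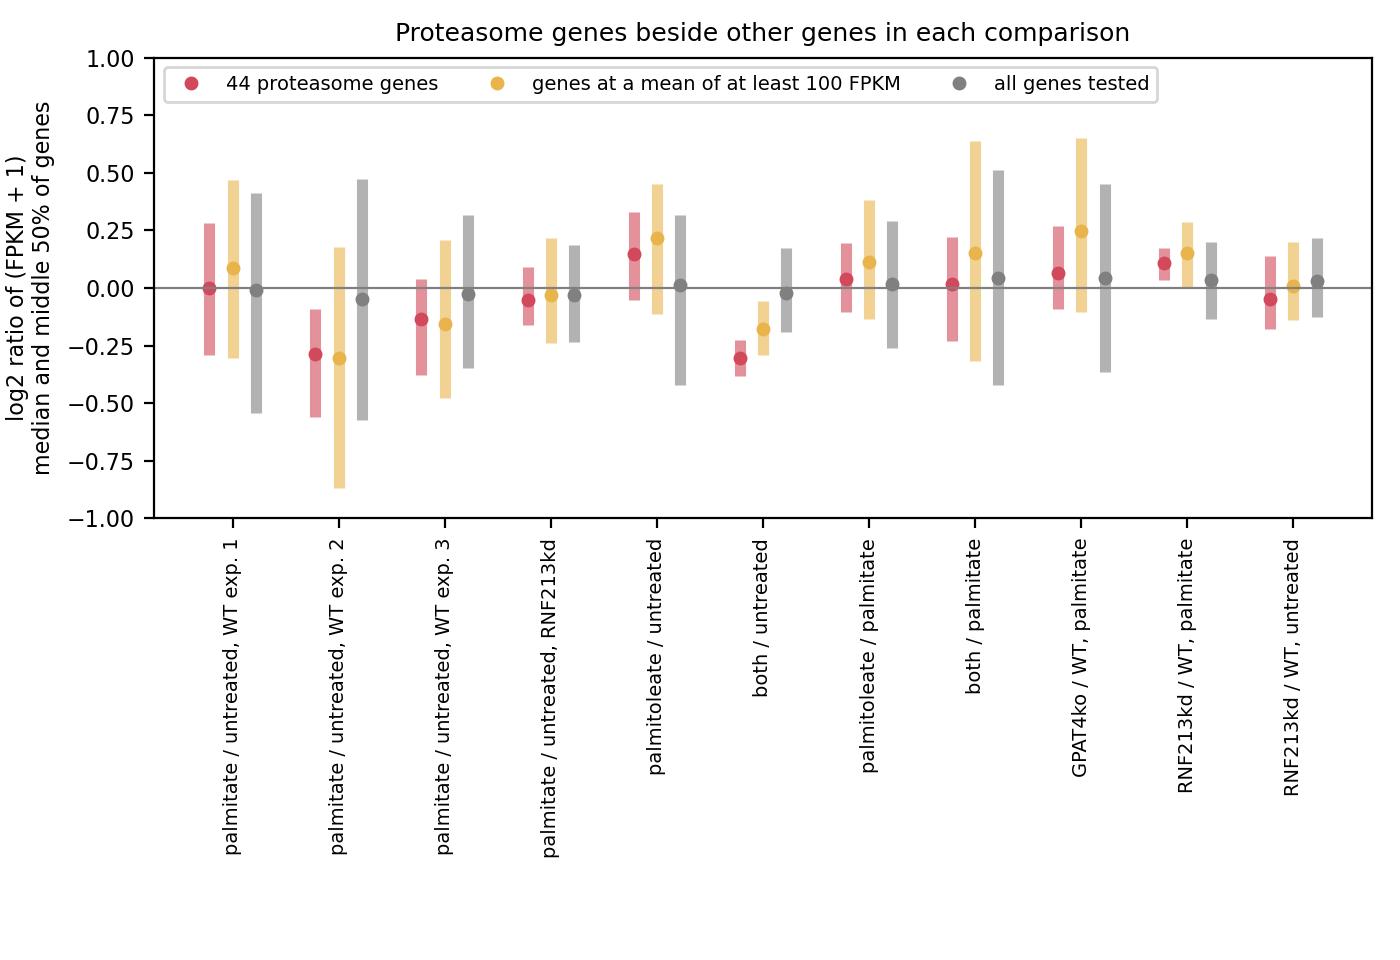
Median (point) and middle 50% (line) of the log2 ratios of (FPKM + 1) over the 44 tested members, over tested genes averaging at least 100 FPKM and over all tested genes, in 11 comparisons. The members' median lies furthest from 0 for both fatty acids over untreated, at -0.30, where genes of at least 100 FPKM are at -0.18.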

How the data were processed

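RNA-seq of K562 cells was analysed from 3 deposited tables, 1 per experiment. Per the labels, RNA of 3 biological replicates was pooled before stranded poly(A) library preparation. Mapping to hg19 used TopHat2 and comparison used Cuffdiff, per the submitters' processing notes, versions not given in the sources used here. The deposited values are FPKM, scaled by the authors with Cuffdiff within a table, so ratios were formed only within a table. Read counts per library are unknown, so no counting interval is given, and errors reflect how far experiments differ. Each table listed between 23260 and 23287 genes; left out were 26 symbols that spreadsheets had changed to dates, genes whose quantification failed or was capped, and genes listed with values differing by a relative 0.01 or more. The tables hold 2 libraries absent from the labels, which were not used.

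Ratios were log2(FPKM + 1), with a pseudocount of 1. The mean of the 3 wild-type ratios was tested with limma 3.58.1 in R 4.3.3 (intensity trend, 2 residual and 3.86 prior degrees of freedom, Benjamini-Hochberg adjustment, threshold 0.05) on genes averaging 1 FPKM or more. The script was tested on simulated data. Pairing by experiment came from the tables: deviations of a palmitate library correlated with those of its own untreated library at 0.458, 0.634 and 0.696, and with the others at -0.526 to 0.011. Deviations were taken from each gene's mean over the 3 experiments, so positive values for own pairs push the others down. The contrast is thus partly built in. The part of scaling within an experiment in it was not tested. The p-values measure the spread between 3 experiments on pooled RNA. GC content came from GENCODE transcripts of GRCh37 for 95.9% of tested genes, all 44 members among them. Members, lists and thresholds were chosen with earlier results of these data known, and the group of genes at 100 FPKM or more was added after seeing the values. Genes named are members called in the palmitate response, the catalytic and inducible beta genes, PSMF1, the largest rise and fall of each class, the 4 largest rises and falls of each single-library comparison, and called genes of the other lists. Other members are named where a count of them is given, PSMD2, PSMD8 and PSMD14 after their values were seen. UBQLN4, NFYA and TAP2 of the other lists were also named after their values were seen. Of the genes listed at the outset, 1 erythroid marker and 1 gene of the ubiquitin list are not reported here, and the counts, medians and sums of those lists leave them out.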

Additional observations from a re-analysis of the deposited data

Results flagged for a closer look

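The base ATPase gene PSMC5 had a palmitate ratio of 0.032 (log2) in RNF213kd cells, at 153 FPKM with palmitate against 150.0 FPKM untreated, while its 3 wild-type ratios were all below 0, at -0.13, -0.28 and -0.04. The lid gene PSMD11 had a ratio of 0.001 in RNF213kd cells and wild-type ratios of -0.04, -0.33 and -0.24. Both were listed because the knockdown library and all wild-type experiments had opposite signs. The difference was not tested, it rests on 1 knockdown pair, and both knockdown ratios are close to 0.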

How the results depend on the processing

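In the wild-type palmitate response, 0 members were called higher under each of the 11 alternatives (limma, with 0 to 2 at an unadjusted p under 0.05), and the members' median stayed between -0.17 and -0.10. The count called lower, 1 as reported, was 0 with no filter on low values (where 0 of all genes were called in either direction, 2207 higher and 1948 lower at an unadjusted p under 0.05, with 5 members among the lower), 2 without small RNA genes and 3 once the GC trend was removed, with a range of 0 to 1 when an experiment was left out. With no replicate block, that is without pairing by experiment, it was 1, and over all genes 262 were called higher and 52 lower, against 730 and 425 as reported. Leaving out small RNA genes gave 1233 higher and 1206 lower calls over all genes, removing the GC trend gave 1622 and 1309, and leaving out experiment 1 or experiment 3 gave 0 and 0 (4474 and 2330 genes at an unadjusted p under 0.05). The cause was not tested. In comparisons of single libraries, a fold of 2 in place of 1.5 left 1 member for palmitoleate over untreated, 0 for palmitoleate over palmitate, 3 for both fatty acids over palmitate and 1 for GPAT4ko over wild type with palmitate. The members' median for both fatty acids over palmitate, 0.02 in the main setting, changed sign to -0.03 when centred on the median of all genes and to -0.07 with the GC trend removed. The mean wild-type palmitate ratios of PSME3, PSMG1, PSMG3, PSMG4, PSMD5, PSMB10, PSMD10, PSME4 and PSMB5 kept their sign under the alternatives. With the GC trend removed, those of PSMB6, PSMC3, PSMC4, PSMD8, PSMD13, PSMD14 and PSME1, which lay between -0.17 and 0.11 and were not called, changed sign. The experiment 1 ratios of many members changed sign as well, in either direction. Among them were PSMB10, PSMG3, PSMB5 (-0.16 to 0.14), PSMA7 (-0.08 to 0.41), PSMA3 (0.41 to -0.07) and PSMD14 (0.56 to -0.11). The experiment 1 ratio of PSMG4 moved from -0.37 to -0.05. Of the comparisons' main values under the alternatives, 128 stayed close to the reported value and 9 moved. With 3 pooled pairs, members with small ratios could not be told from 0, and genes under 1 FPKM, such as PSMB9, were not tested.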
